A study of Rattus norvegicus with 63 samples.

Results

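Collagens, laminins and integrins are the structural proteins of the matrix around kidney tubules, capillaries and interstitial cells, and the receptors by which cells hold on to it. On the main array type they comprise 77 of 15866 non-control probe sets, for 56 genes, chosen by symbol alone. The names begin with Col, Lama, Lamb or Lamc and a digit, or with Itga or Itgb and a digit or letter. Fn1, Nid1 and Sparc were added. The symbol rule also takes in 4 probe sets of 3 genes that only carry an integrin's name (Itgb1bp1, Itgb1bp2 and Itgb3bp), whose products bind an integrin chain. Of the 77, 50 probe sets (39 genes) were bright enough to test, with a mean log2 level in the upper 60% of the array, which here means a signal above about 52.3. The 27 dim ones, among them Itgam, Itgad, Itgb7, Lama4, Col2a1, Col7a1 and Col11a1, are not described further.

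Total RNA came from rat kidney. Untreated rats were sampled at 0 h (4 libraries), and rats injected with methylprednisolone, a synthetic glucocorticoid, at 16 times from 0.25 to 72 h (3 libraries each). A second Affymetrix array type was hybridised for 0 h (4 libraries), 2 h (3) and 6 h (3), where 52 probe sets of 32 of these genes exist and 33 of them, for 21 genes, were tested. Dose, strain, sex, age and hour of day are not given in the labels, and untreated rats exist at 0 h only, so time since injection and hour of day cannot be told apart. Whether each numbered library is its own animal is not stated, so every p-value here reflects how far these libraries differ, a spread that can be technical in origin. In whole kidney, fewer cells of a type and less RNA per cell cannot be told apart either.

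As background, basement membranes are sheets built from collagen IV and laminin networks that nidogen (Nid1) links together. Col4a1 and Col4a2 encode the chains of the widespread collagen IV, whereas Col4a4 and Col4a5 encode chains of the specialised network of the glomerular filter. A laminin is a trimer of an alpha, a beta and a gamma chain, and an integrin a pair of an alpha and a beta chain. Glucocorticoids act through a receptor that binds DNA at inverted repeats, of which AGAACA is a common arm, and they are known to change matrix production in many tissues.

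Promoters of 4 members are shown. Col4a1 and its neighbour Col4a2 were taken because they share theirs. Col8a2 and Lama3 were taken because they were called lower and hold AGAACA, a single arm of the inverted repeat. Other members that hold this arm are not shown. Sequences are from RefSeq, build GRCr8, and run 5′ to 3′ from 250 bases before to 50 bases after the annotated start. Col4a1 (chr16:84885347-84885646, plus strand) and Col4a2 (chr16:84885471-84885770, minus strand) lie head to head with 76 bases between their start sites. These are in capitals in both lines, and 78.9% of those bases are G or C.
Col4a1: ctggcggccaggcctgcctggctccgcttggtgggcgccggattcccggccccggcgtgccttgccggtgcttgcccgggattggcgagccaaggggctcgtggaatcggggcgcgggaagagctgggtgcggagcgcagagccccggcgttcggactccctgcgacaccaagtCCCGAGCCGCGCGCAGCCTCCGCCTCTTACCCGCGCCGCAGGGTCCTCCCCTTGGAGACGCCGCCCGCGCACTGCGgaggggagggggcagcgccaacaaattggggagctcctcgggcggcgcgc
Col4a2: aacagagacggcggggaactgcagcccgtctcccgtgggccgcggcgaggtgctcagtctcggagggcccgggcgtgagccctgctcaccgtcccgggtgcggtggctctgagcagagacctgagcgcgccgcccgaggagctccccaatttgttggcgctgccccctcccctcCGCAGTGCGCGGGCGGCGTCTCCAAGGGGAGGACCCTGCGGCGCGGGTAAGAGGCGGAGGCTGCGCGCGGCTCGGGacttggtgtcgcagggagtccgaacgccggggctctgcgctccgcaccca
Col8a2 (chr5:143870519-143870818, plus strand) and Lama3 (chr18:3952517-3952816, plus strand) each hold AGAACA once, in capitals, beginning 220 bases before the start of Col8a2 and 11 bases after the first base of Lama3.
Col8a2: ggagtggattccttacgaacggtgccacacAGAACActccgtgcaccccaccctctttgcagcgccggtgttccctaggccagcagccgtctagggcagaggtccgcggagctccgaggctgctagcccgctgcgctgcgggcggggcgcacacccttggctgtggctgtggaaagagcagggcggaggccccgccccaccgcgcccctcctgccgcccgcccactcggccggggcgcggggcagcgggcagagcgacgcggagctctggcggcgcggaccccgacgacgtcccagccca
Lama3: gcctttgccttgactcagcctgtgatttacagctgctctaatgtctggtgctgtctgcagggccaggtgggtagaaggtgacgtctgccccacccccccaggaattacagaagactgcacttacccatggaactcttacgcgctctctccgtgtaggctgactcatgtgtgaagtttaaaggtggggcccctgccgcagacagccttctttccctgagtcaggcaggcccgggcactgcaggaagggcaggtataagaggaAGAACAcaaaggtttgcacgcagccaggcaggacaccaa
Of the 56 member genes, 44 had a promoter entry. Searched on both strands, AGAACA occurred in 7 of the 44 (15.9%) and in 20.7% of 33469 promoters of the same length. The full inverted repeat, 2 such arms facing each other 3 bases apart, occurred in 0 of the 44 and in 5 promoters of the 33469 (0.0149%). The GC box GGGCGG occurred in 21 of the 44 (47.7%, against 33.1% of all), TATAAA in 4 (9.09%, against 14.2%) and CCAAT in 12 (27.3%, against 37.5%). These are matches of letters in a short window and nothing was tested on them.

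Signals below are intensities that the authors scaled per array. Differences are on the scale of log2(intensity + 7.63), first group minus second, given ± 1 standard error. Adjusted p is limma's, by Benjamini-Hochberg over the 9520 tested probe sets, with 0.05 as the threshold. Times were pooled into windows of 0.25 to 1, 2 to 4, 5 to 8, 12 to 18 and 30 to 72 h (12, 6, 15, 6 and 9 libraries). All windows share the 4 libraries at 0 h, so their differences from 0 h are not independent. The window of 5 to 8 h was also set against 30 to 72 h, which leaves those libraries out.

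The members moved about as often as any other gene. Some change over the 17 times (moderated F test) was called in 9 of 50 probe sets, where 16.1% of all tested probe sets were called. At 2 to 4 h 2 were higher and 1 was lower than at 0 h (background 5.17% and 4.8%, 9.97% in either direction), and at 5 to 8 h 2 were higher and 4 lower (4.98% and 4.73%, 9.71% in either direction). None was called at 0.25 to 1 h (background 0.62% higher and 0.042% lower, 0.662% in either direction; 1 of 50 had an unadjusted p under 0.05 in limma), at 12 to 18 h (0.284% higher and 0.105% lower, 0.389% in either direction; 3 of 50) or at 30 to 72 h, where limma called 0 of all 9520 (0%) and 2 of 50 members had an unadjusted p under 0.05. Between 5 to 8 h and 30 to 72 h 8 were higher and 10 lower, against a background of 12.5% and 13.8%. The median difference of the 50 was 0.0981 at 2 to 4 h and 0.00645 at 5 to 8 h, beside -0.067 and -0.0349 over all tested probe sets. The largest called difference of a member between windows was 0.74 (Lamb2, a 1.67-fold difference).

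**Figure D1:**
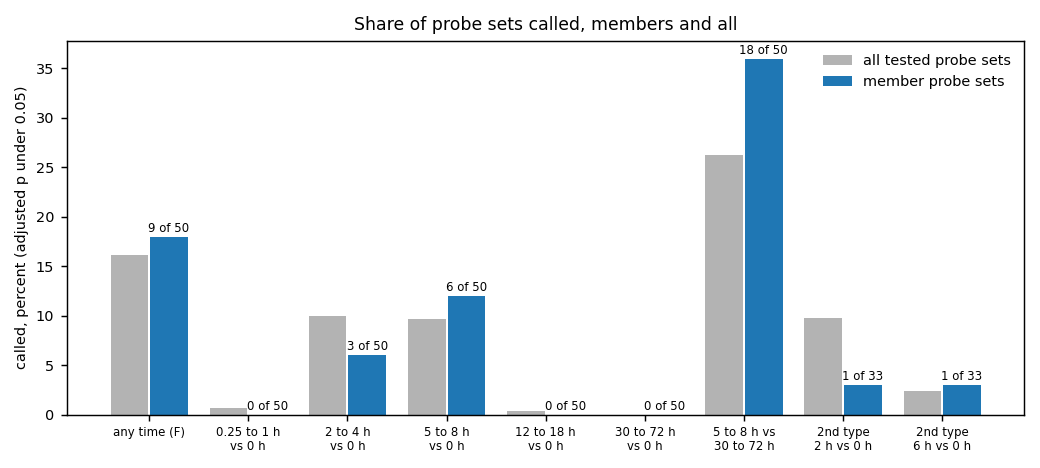
Percent of probe sets called by limma (adjusted p under 0.05, either direction) in each comparison, for all tested probe sets (grey) and for members (blue), with the number of members above each blue bar. In the F test 9 of 50 members (18%) stood beside 16.1% of all, and 18 of 50 (36%) beside 26.2% between 5 to 8 h and 30 to 72 h.

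**Figure D2:**
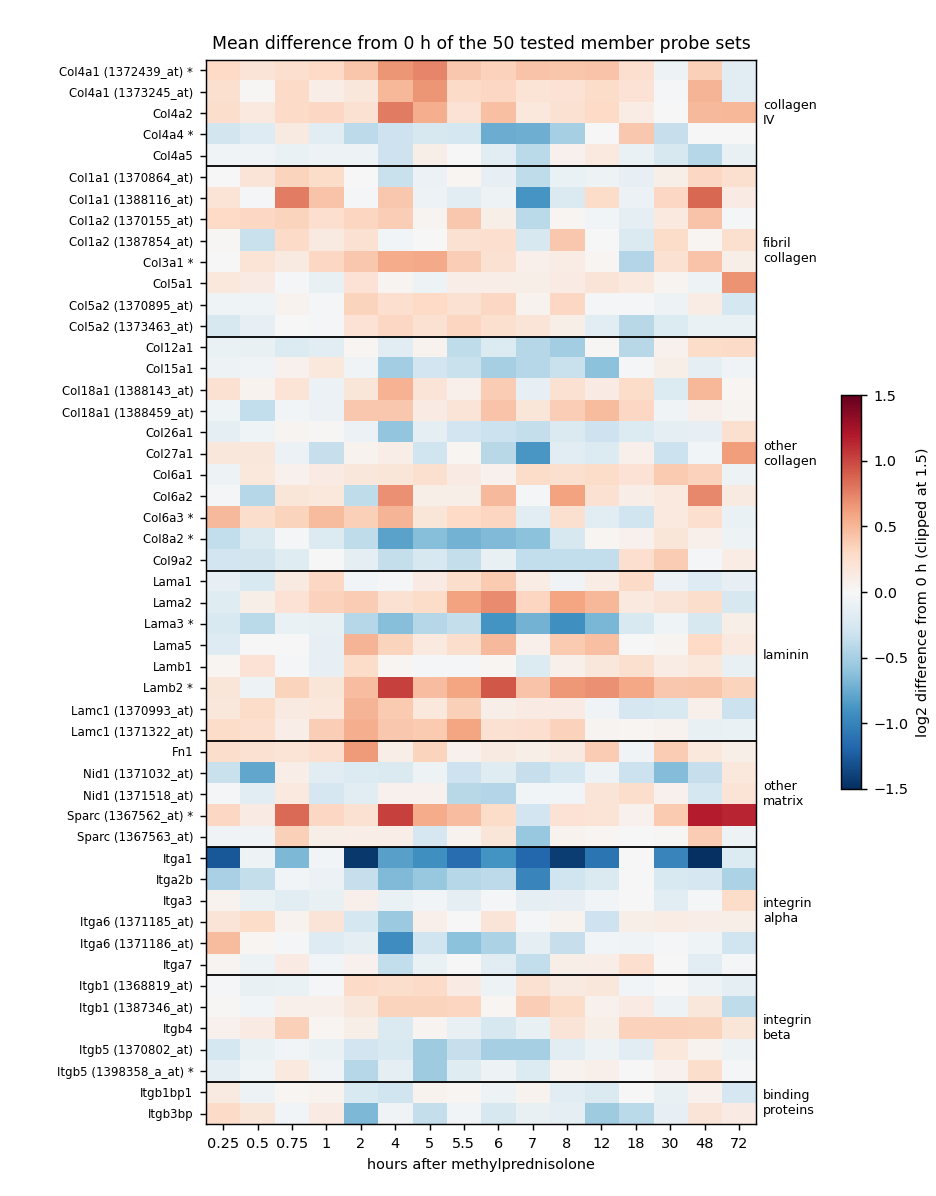
Mean log2 difference from 0 h of each of the 50 tested member probe sets (rows, grouped by role) at the 16 times after injection (columns); red is higher and blue is lower than at 0 h, and an asterisk marks the 9 probe sets called by the F test. Col4a1 and Lamb2 were above 0 h over the hours from 2 to 8, Lama3 and Col8a2 below it, and the row of Itga1 shows the widest swings.

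Collagen IV was represented by 5 tested probe sets of 4 genes. At 0 h the dimmer of the Col4a1 probe sets read 366, 424, 362 and 561. It ranged from 530 to 716 (median 628) at 2 to 4 h and from 486 to 998 (median 549) at 5 to 8 h. At 30 to 72 h it ranged from 320 to 612 (median 446). The libraries of 2 to 8 h thus lay above 3 of the 4 at 0 h and overlapped only with replicate 4. Col4a1 rose by 0.54 ± 0.155 at 2 to 4 h (adjusted p = 0.0189; above the 0 h mean in 6 of 6 libraries). The rise at 5 to 8 h was 0.47 ± 0.135 (adjusted p = 0.02; 15 of 15). Col4a1 was also higher at 5 to 8 h than at 30 to 72 h by 0.42 ± 0.101 (adjusted p = 0.00164). The F test gave an adjusted p of 0.0278, and 0.0579 or 0.0632 without 72 h replicate 1 or replicate 3. Both calls against 0 h rest on few untreated libraries. Without 0 h replicate 1 the adjusted p was 0.0817 at 2 to 4 h and 0.121 at 5 to 8 h. Without replicate 3 it was 0.0916 and 0.125, and without replicate 2 it was 0.0561 at 5 to 8 h. The call against 30 to 72 h was kept without each of the 24 libraries in turn.

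The other collagen IV probe sets were not called against 0 h. The brighter Col4a1 probe set differed from 0 h by 0.33 ± 0.202 at 2 to 4 h (adjusted p = 0.308), with a 0 h library at 928 among 465, 526 and 521. Col4a2 read 373, 346, 370 and 525 at 0 h and 575, 440 and 406 at 2 h, then 661, 716 and 694 at 4 h, above every untreated library. Over 2 to 4 h its difference of 0.51 ± 0.234 had an adjusted p of 0.17. The glomerular chain Col4a4 was dim, at 70.3, 74.7, 98.6 and 102 at 0 h. It was called by the F test (adjusted p = 0.0488) and was lower at 5 to 8 h (26.8 to 105, median 62.2) than at 30 to 72 h (51.2 to 113, median 82.3) by -0.38 ± 0.134 (adjusted p = 0.0317). The F call was lost without any 1 of 37 of the 52 libraries, with an adjusted p of at most 0.112 (without 18 h replicate 2), and the call between windows without any 1 of 9 of 24, with at most 0.0874 (without 72 h replicate 1). Without the 6 libraries of high Fga the latter had an adjusted p of 0.127. Beside Col4a4, markers of podocytes, the cells of the glomerular filter, had a summed signal of 428 to 734 at 5 to 8 h, 857 to 1070 at 30 to 72 h and 788 to 1090 at 0 h. Of these markers 3 of 4 tested ones were lower at 5 to 8 h than at 30 to 72 h and none was near 0. Their part in the result was not tested. Col4a5 differed from 0 h by -0.20 ± 0.177 at 2 to 4 h (adjusted p = 0.522).

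Laminin chains went in both directions. Lamb2, the beta chain of the glomerular and vascular laminins, read 73, 129, 129 and 140 at 0 h. All 6 libraries of 2 to 4 h were higher, at 170, 141 and 171 (2 h) and 201, 329 and 208 (4 h). The groups thus did not overlap. How many of all tested probe sets separate in this way was not counted, for Lamb2 or for any other member. By limma, 5.17% of all tested probe sets were called higher here. Lamb2 rose by 0.74 ± 0.198 (adjusted p = 0.0112). At 5 to 8 h, where it ranged from 118 to 269 (median 172), it rose by 0.61 ± 0.173 (adjusted p = 0.0159; 15 of 15 libraries above the 0 h mean). The low library, 0 h replicate 1, matters for both calls: without it the differences were 0.54 (adjusted p = 0.105) and 0.42 (adjusted p = 0.202). The F call of Lamb2 (adjusted p = 0.0293) was lost without 0.5 h replicate 1 (0.0607), 0.5 h replicate 3 (0.0568), 4 h replicate 2 (0.0707) or 6 h replicate 1 (0.0564).

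Lama3, the alpha chain of the laminin that anchors epithelia, fell. It read 161, 130, 143 and 118 at 0 h and ranged from 72 to 110 (median 94.7) at 2 to 4 h, from 38.7 to 124 (median 85.3) at 5 to 8 h and from 105 to 203 (median 124) at 30 to 72 h. All 6 libraries of 2 to 4 h were below all 4 of 0 h, although that difference of -0.53 ± 0.216 was not called (adjusted p = 0.116). At 5 to 8 h Lama3 was lower than at 0 h by -0.66 ± 0.189 (adjusted p = 0.0172; 15 of 15 libraries below the 0 h mean) and lower than at 30 to 72 h by -0.59 ± 0.141 (adjusted p = 0.00164; 15 of 15). The lowest library, 7 h replicate 3, is 1 of the 6 libraries of high Fga described at the end. Without 0 h replicate 1 or replicate 3 the adjusted p against 0 h was 0.0947 or 0.0643; the call against 30 to 72 h was kept under each alternative and each omitted library. The F call (adjusted p = 0.0466) was lost without any 1 of 33 of the 52 libraries, with an adjusted p of at most 0.0868 (without 6 h replicate 3).

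Of the other laminins, Lamc1, the gamma chain shared by most laminins, read 212, 276, 225 and 262 at 0 h, 258 to 458 (median 353) at 2 to 4 h, 242 to 427 (median 288) at 5 to 8 h and 190 to 289 (median 232) at 30 to 72 h. Lamc1 was higher at 5 to 8 h than at 30 to 72 h by 0.42 ± 0.108 (adjusted p = 0.00349), with 15 of 15 libraries above the later mean. Its difference from 0 h at 2 to 4 h was 0.48 ± 0.165 (adjusted p = 0.0562). Its dimmer probe set differed between 5 to 8 h and 30 to 72 h by 0.33 ± 0.174 (adjusted p = 0.164). Lama2, the chain of muscle and interstitial basement membranes, was higher at 5 to 8 h (78.6 to 146, median 120) than at 30 to 72 h (62.2 to 106, median 92.6) by 0.43 ± 0.141 (adjusted p = 0.0219; 0.0717 without 30 h replicate 2). Lama1, found early in kidney development and in tubular basement membrane, was higher by 0.30 ± 0.104 (adjusted p = 0.0277). That call was lost without 30 h replicate 2 (0.0854), 48 h replicate 1 (0.0592), 48 h replicate 2 (0.0609) or 72 h replicate 2 (0.0554). Lama5 and Lamb1 were called in no comparison: their differences from 0 h at 2 to 4 h were 0.42 ± 0.243 and 0.16 ± 0.131.

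**Figure D3:**
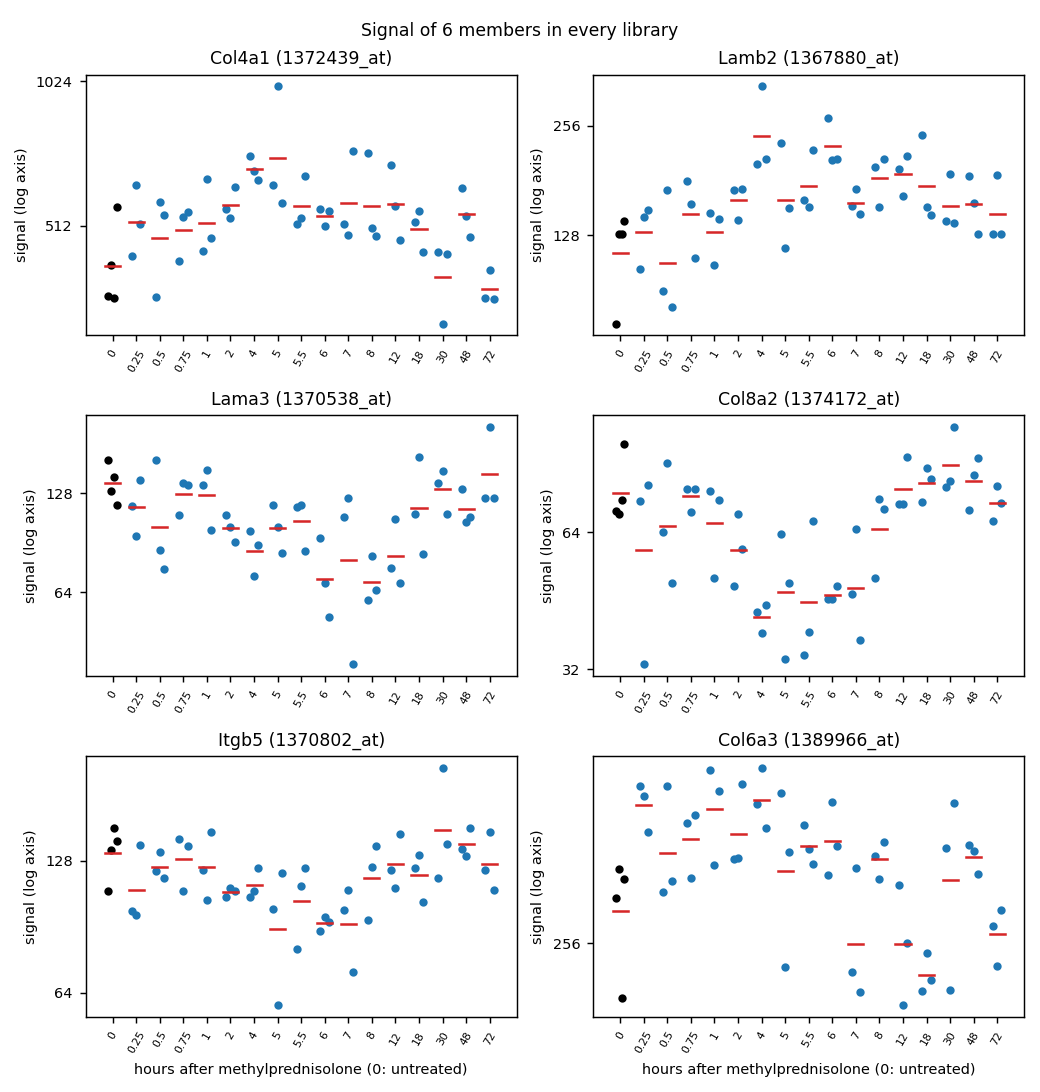
Signal (log axis) of 6 members in every library of the main array type by hours after injection; black points are the untreated libraries, blue points the injected ones and red bars the mean of each time on the log scale. Lamb2 lies above the untreated libraries at 2 and 4 h, Lama3 and Col8a2 are lowest between 4 and 8 h, and the untreated points of Col4a1 reach into the range of the later ones.

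Among the other collagens Col8a2 and Col6a3 had the smallest F test p-values of all members. Col8a2, a chain of the hexagonal collagen lattice under endothelia, read 71.2, 70.2, 75.2 and 100 at 0 h and 42.7, 38.5 and 44.3 at 4 h, and by 18 h it was at 74.7, 88.6 and 83.8. Col8a2 fell by 0.59 ± 0.19 at 2 to 4 h (adjusted p = 0.04) and by 0.57 ± 0.165 at 5 to 8 h (adjusted p = 0.0195), where 15 of 15 libraries were below the 0 h mean. It was lower at 5 to 8 h (33.7 to 75.9, median 48.7) than at 30 to 72 h (67.9 to 109, median 80.8) by -0.63 ± 0.124 (adjusted p = 0.00015). Its F test gave an adjusted p of 0.00705, and both of these calls were kept without each library in turn. Against 0 h, the call of 5 to 8 h was lost without 0 h replicate 4 (adjusted p = 0.136), and that of 2 to 4 h without any of 8 of 10 libraries (at most 0.162, without 0 h replicate 4). At its lowest times this probe set was under the signal of 52.3 at which probe sets entered the test, so the log scale with its added constant understates the fall. Endothelial markers had a summed signal of 563 to 727 at 2 to 4 h and 849 to 1210 at 0 h, with 3 of 4 tested markers lower (Kdr by -1.23 ± 0.253, adjusted p = 0.0008, Tie1 by -0.84 and Egfl7 by -0.68). Their part in the result was not tested.

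Col6a3, the long chain of the beaded microfibrils of the interstitium, was called over the times (adjusted p = 0.00927) with no call in a single window. It read 297, 327, 214 and 316 at 0 h. All 12 libraries of the first hour were above the 0 h mean (a difference of 0.39 ± 0.134, adjusted p = 0.304), and at 18 h it read 219, 248 and 227. All 6 libraries of 2 to 4 h (337 to 455) were above all 4 at 0 h, with a difference of 0.43 ± 0.149 and an adjusted p of 0.055. Col6a1 and Col6a2, its partner chains, were called in no comparison. Col12a1 and Col9a2, fibril-associated collagens, were lower at 5 to 8 h than at 30 to 72 h, by -0.50 ± 0.17 (adjusted p = 0.0251) and -0.45 ± 0.155 (adjusted p = 0.0278). The call of Col12a1 was lost without 30 h replicate 1 (0.0919), 48 h replicate 3 (0.0698) or 72 h replicate 2 (0.062), and that of Col9a2 without any 1 of 6 libraries (at most 0.065, without 48 h replicate 1). Col15a1, Col18a1, Col26a1 and Col27a1 were called in none.

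Fibril-forming collagens, the cords of connective tissue, had no call against 0 h in a window. Col3a1 read 284, 415, 202 and 491 at 0 h, 405, 549 and 375 at 2 h, 419, 543 and 506 at 4 h, and 217, 281 and 228 at 18 h. The untreated libraries thus spanned nearly the whole range of the later ones. Its F test was called (adjusted p = 0.0324), and the call was lost without 4 h replicate 2 (0.0614), 4 h replicate 3 (0.0589), 5 h replicate 3 (0.0533), 18 h replicate 1 (0.103) or 18 h replicate 3 (0.094). Both probe sets of Col5a2, which helps to start fibrils, were higher at 5 to 8 h than at 30 to 72 h, by 0.32 ± 0.0876 (adjusted p = 0.00609) and 0.35 ± 0.131 (adjusted p = 0.0433). The brighter one read 119 to 194 (median 147) against 87.7 to 147 (median 130) and kept its call without each library, whereas the call of the other was lost without any 1 of 15 of 24 libraries (at most 0.112, without 30 h replicate 2). The brighter probe set of Col1a1, the main collagen of scar and tendon, ran from 32.2 to 253 at 5 to 8 h and from 99 to 452 at 30 to 72 h, a difference of -0.72 ± 0.27 (adjusted p = 0.045). That call was lost without any 1 of 13 libraries (at most 0.162, without 30 h replicate 1), and the other Col1a1 probe set differed by -0.34 ± 0.144 (adjusted p = 0.0767). Col1a2 was called in no comparison.

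Among the other matrix proteins, fibronectin (Fn1) read 333, 269, 223 and 386 at 0 h and 424, 712 and 337 at 2 h, a difference of 0.37 ± 0.177 for 2 to 4 h (adjusted p = 0.181). The library at 712 was also the one with the highest signal of Alb, a liver transcript, at 793 against 36.4 for the level at 0 h, and the part of liver RNA in the Fn1 value was not tested. Nid1 was not called in any comparison. The pair of probe sets for Sparc, a secreted collagen-binding protein, disagreed. The dimmer one read 346, 427, 321 and 490 at 0 h, 831, 971 and 887 at 48 h and 723, 984 and 918 at 72 h. It was called over time (adjusted p = 0.0462) and was lower at 5 to 8 h than at 30 to 72 h by -0.66 ± 0.189 (adjusted p = 0.00817). The brighter one read 892, 868 and 860 at 48 h and 711, 434 and 826 at 72 h against 737, 777, 449 and 787 at 0 h, and differed between those windows by -0.20 ± 0.132 (adjusted p = 0.258). The F call of the dimmer one was lost without any 1 of 32 libraries (at most 0.09, without 72 h replicate 2). With probe sets that disagree, the late level of Sparc is uncertain here.

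All 5 tested integrin beta probe sets, for 3 genes, were called between 5 to 8 h and 30 to 72 h (2 higher and 3 lower), where 26.2% of all tested probe sets were called. Against 0 h only 1 of the 5 was called, at 5 to 8 h. Itgb5, the beta chain of a vitronectin receptor, had 2 probe sets that were both lower at 5 to 8 h than at 30 to 72 h. The dimmer one read 109, 135, 152 and 142 at 0 h, 60 to 138 (median 98.8) at 5 to 8 h and 110 to 208 (median 136) at 30 to 72 h, with differences of -0.41 ± 0.137 from 0 h (adjusted p = 0.0476) and -0.46 ± 0.102 from 30 to 72 h (adjusted p = 0.000767). The brighter one differed from 30 to 72 h by -0.29 ± 0.0853 (adjusted p = 0.00973) and was called over time (0.0299), while its difference from 0 h at 5 to 8 h was -0.19 ± 0.114 (adjusted p = 0.343). Both calls against 30 to 72 h were kept without each library. The call of the dimmer probe set against 0 h was lost without any 1 of 10 of 19 libraries (at most 0.196, without 0 h replicate 3), and the F call of the brighter one without 2 h replicate 1 (0.0621), 2 h replicate 3 (0.0621), 5 h replicate 2 (0.0804) or 48 h replicate 1 (0.0628).

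Itgb1, the beta chain of most matrix receptors and the brightest integrin here, read 831, 770, 845 and 836 at 0 h and 964, 977 and 1060 at 2 h, then 1070, 851 and 1060 at 4 h. All 6 libraries of 2 to 4 h lay above all 4 at 0 h, with a difference of 0.28 ± 0.123 that was not called (adjusted p = 0.155). Both its probe sets were higher at 5 to 8 h than at 30 to 72 h, by 0.21 ± 0.0803 (adjusted p = 0.0444) and 0.36 ± 0.115 (adjusted p = 0.0176). The first call was lost without any 1 of 15 of 24 libraries (at most 0.113, without 72 h replicate 3), and without the 6 libraries of high Fga the adjusted p-values were 0.209 and 0.0501. Itgb4, the beta chain of the hemidesmosome receptor for laminin, was lower by -0.33 ± 0.127 (adjusted p = 0.0484), a call lost without any 1 of 15 libraries (at most 0.193, without 30 h replicate 2).

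None of the 6 alpha chain probe sets, for 5 genes, had a positive difference from 0 h at 2 to 4 h. Their median was -0.452, beside -0.067 over all tested probe sets, and the share of all below 0 was not counted. None of the 6 was called there, where 4.8% of all tested probe sets were called lower. Only Itga2b was called in any window, at 5 to 8 h. Itga2b, the alpha chain of the platelet fibrinogen receptor, read 114, 155, 114 and 144 at 0 h and 31.4 to 127 (median 94) at 5 to 8 h, a difference of -0.54 ± 0.168 (adjusted p = 0.0338; 15 of 15 libraries below the 0 h mean). That call was lost without 0 h replicate 2 (0.151) or replicate 4 (0.124). Pf4, the other tested platelet marker, differed from 0 h at 5 to 8 h by -0.38 ± 0.208 (adjusted p = 0.278). Between 5 to 8 h and 30 to 72 h Pf4 was lower by -0.80 ± 0.156 (adjusted p = 0.000149), where Itga2b differed by -0.22 ± 0.126 (adjusted p = 0.204). The part of platelets in the Itga2b value was not tested. The brighter Itga6 probe set, for the alpha chain of a laminin receptor, fell short in the F test (adjusted p = 0.0537). At 4 h it read 94.3, 53.6 and 96.8 against 159, 191, 108 and 188 at 0 h. The dimmer Itga6 probe set had an adjusted p of 0.712 in the F test. At 4 h it was also below 0 h, by -0.553 beside -0.933 for the brighter one. At 6 h it differed from 0 h by 0.195, where the brighter one differed by -0.477. Itga3 and Itga7, which also encode laminin receptors, were called in no comparison.

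Itga1, the alpha chain of a collagen receptor, spread more between libraries of a time than any other member. Its residual SD was 0.998 on the log2 scale, at the 99.6th percentile of all tested probe sets. The 0 h libraries read 531, 456, 202 and 397, those of 0.75 h 64.9, 605 and 301, and those of 5.5 h 569, 81.7 and 92.1. Within a time the highest library exceeded the lowest by a median of 3.69 times, and by 9.32 times at 0.75 h. With this spread a difference of -1.13 ± 0.602 at 2 to 4 h was not called (adjusted p = 0.242). The spread recurred on the second array type, whose libraries carry the same times and title numbers, taken here as the same rats: at 6 h Itga1 read 467, 151 and 106 on the main type and 435, 192 and 209 on the second, in the order of the numbers. Over the 10 libraries of 0, 2 and 6 h its log2 levels on the array types correlated with Pearson r = 0.927 (permutation p = 2e-05, adjusted over 18 genes 0.00036) and Spearman rho = 0.976 (permutation p = 3e-05, adjusted 0.00054). Without the 2 libraries farthest from the median r was 0.894, and as deviations from the mean of each time it was 0.856. This correlation was chosen after the values had been seen. Of the 18 genes tested on both types 6 had an adjusted p under 0.05: Itga1, Col3a1, Lama3, Fn1, Sparc and Lamb2, with r from 0.822 to 0.927. Differences between the times enter these values. As deviations from the mean of each time r was 0.946 for Col3a1, 0.576 for Lama3 and 0.783 for Fn1. It was 0.881 for Sparc and 0.409 for Lamb2. Over the 18 genes the median r was 0.502, the lowest was -0.295 and 15 were positive.

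**Figure D4:**
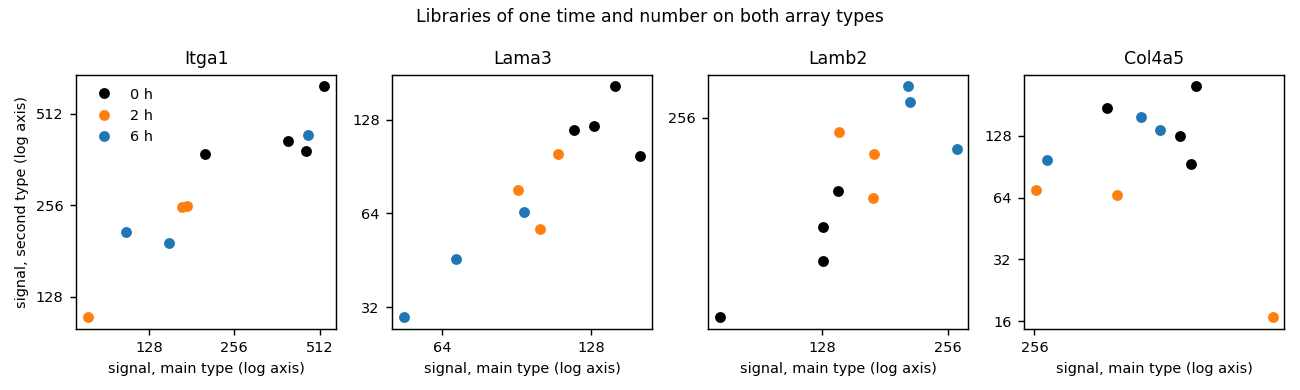
Signal of Itga1, Lama3, Lamb2 and Col4a5 on the main array type (horizontal, log axis) against the second type (vertical, log axis) for the 10 libraries of 0, 2 and 6 h that share a time and title number. Itga1, Lama3 and Lamb2 ascend (r = 0.927, 0.9 and 0.822), whereas Col4a5 does not (r = -0.295), its lowest point on the second type being a 2 h library.

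On the second array type 1 probe set was lower at 6 h and 1 at 2 h, and none was higher (background at 6 h 0.782% lower, 1.56% higher and 2.35% in either direction, at 2 h 4.98%, 4.82% and 9.8%; p-values adjusted over 5244 probe sets; 1 and 4 members were higher at an unadjusted p under 0.05). Lama3 fell there too, from 97.9, 122, 164 and 119 at 0 h to 64.8, 45.7 and 29.8 at 6 h, a difference of -1.40 ± 0.284 (adjusted p = 0.0228), and all 3 libraries were below all 4 untreated ones. The call was lost without any 1 of 5 of the 7 libraries. The brighter Lamb2 probe set read 153, 177, 193 and 212 at 0 h and 236, 278 and 267 at 6 h, without overlap. Its difference of 0.50 ± 0.182 was not called (adjusted p = 0.278). The dimmer one did overlap, at 118, 162, 81.8 and 149 at 0 h and 144, 199 and 156 at 6 h. It differed by 0.40 ± 0.243 (adjusted p = 0.65). Col4a5 was lower at 2 h (65.8, 16.8 and 69.6) than at 0 h (127, 93.2, 175 and 223) by -1.68 ± 0.434 (adjusted p = 0.0332), a call lost without any 1 of 4 of the 7 libraries. On the main type it read 304, 421 and 257 at 2 h against 347, 355, 298 and 359, so the array types did not give the same picture for Col4a5. Itga1 differed at 2 h by -1.19 ± 0.359 (adjusted p = 0.0569). The brighter Col3a1 probe set differed by 1.13 ± 0.393 (adjusted p = 0.0859) and the dimmer by 0.57 ± 0.365 (adjusted p = 0.325). The tested Fn1 probe sets differed by 0.91 ± 0.345, 0.81 ± 0.394 and 0.88 ± 0.294 (adjusted p = 0.107, 0.197 and 0.0769).

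Pairs of matrix genes, most of them chains that assemble together, were compared within times. The question was whether a library high in the first gene was also high in the second. The brightest probe set stood for a gene. Col4a1 and Sparc are thus not read here by the dimmer probe sets whose calls are given above. Deviations of each library from the mean of its time were correlated over 52 libraries for 6 pairs, with permutation within times and adjustment over the pairs. Col4a1 and Col4a2, the head-to-head genes shown above, correlated with r = 0.753 (rho = 0.731, adjusted permutation p = 3e-05 and 9e-05), and Col1a1 and Col1a2 with r = 0.769 (rho = 0.725, adjusted 3e-05 and 6e-05); 1e-05 was the smallest p that the permutations could give. Col1a1 and Col3a1, both fibril-forming, correlated with r = 0.572 (rho = 0.559, adjusted 0.00256 and 0.00248). Lamb1 and Lamc1 did not reach the threshold (r = -0.214, rho = -0.236, adjusted 0.461 and 0.227), nor did Itga1 and Itgb1 (r = 0.112, rho = 0.0728, adjusted 0.609 and 0.685) or Sparc and Col4a1 (r = 0.126, rho = 0.22, adjusted 0.609 and 0.227). Without the 2 libraries farthest from the median of the first gene, the first 3 pairs had r = 0.743, 0.737 and 0.635, and the others -0.193, 0.143 and 0.265. The points share array scaling, and whether that contributes was not tested.

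**Figure D5:**
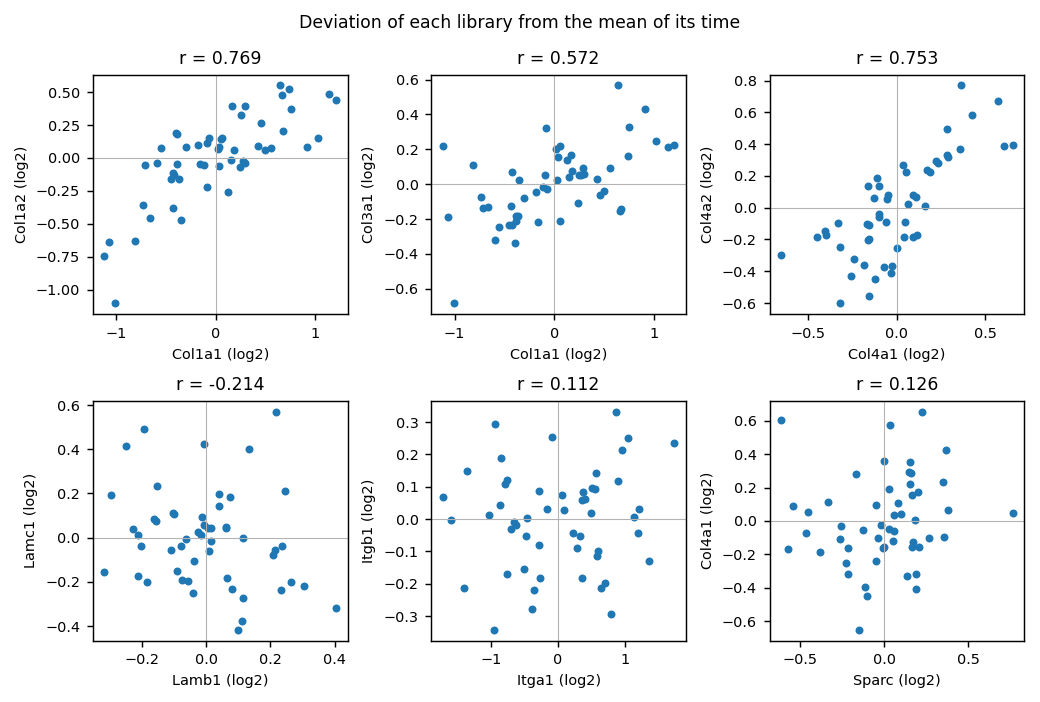
Deviation of each of the 52 libraries from the mean log2 level of its time for 6 pairs of matrix genes, the first gene horizontal and the second vertical. The points of Col1a1 with Col1a2, Col4a1 with Col4a2 and Col1a1 with Col3a1 ascend (r = 0.769, 0.753 and 0.572), and those of the other 3 pairs have r between -0.214 and 0.126.

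Genes that act on the matrix were taken from lists, a single (the brightest) probe set standing for a gene, and compared with 0 h; over all tested probe sets 4.98% were higher and 4.73% lower at 5 to 8 h. Of 15 tested genes of collagen processing and cross-linking, 2 were higher and none lower at 5 to 8 h: Lox, which cross-links collagen and elastin, by 1.65 ± 0.253 (adjusted p = 7.67e-06) and P4ha2, a collagen prolyl hydroxylase, by 0.98 ± 0.132 (adjusted p = 9.16e-07). Of 11 proteases and inhibitors, 2 were higher, Mmp11 by 1.85 ± 0.256 (adjusted p = 1.29e-06) and the plasminogen activator Plat by 0.66 ± 0.194 (adjusted p = 0.0219), and 1 was lower, the activator Plau by -1.02 ± 0.175 (adjusted p = 5.26e-05). Of 7 basement membrane partners only Nid2, the second nidogen, was called, lower by -0.56 ± 0.109 (adjusted p = 0.000343), beside an uncalled difference of -0.17 ± 0.166 for Nid1. Of 4 tested matricellular genes 2 were higher, Ccn2, a connective tissue growth factor, by 2.63 ± 0.193 (adjusted p = 1.65e-13) and Mgp by 1.11 ± 0.174 (adjusted p = 1.09e-05). Dcn was the 1 called of 3 small proteoglycans, higher by 0.96 ± 0.294 (adjusted p = 0.0287). Of 12 TGF-beta pathway genes 1 was higher (Smad4, by 0.57 ± 0.148, adjusted p = 0.00806) and 1 lower (Ltbp1, by -0.45 ± 0.151, adjusted p = 0.0479).

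Of 21 genes of focal adhesions, the complexes that join integrins to actin, 3 were higher and 2 lower at 5 to 8 h, where 9.71% of all tested probe sets were called in either direction. Zyx was higher by 0.75 ± 0.171 (adjusted p = 0.00234), Tns1 by 0.66 ± 0.126 (adjusted p = 0.000271) and Pxn by 0.35 ± 0.105 (adjusted p = 0.0233), and Lims1 was lower by -0.55 ± 0.158 (adjusted p = 0.0198) and Csk by -0.35 ± 0.107 (adjusted p = 0.0312). The median of the 21 was -0.00744, beside -0.0349 over all tested probe sets.

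Libraries of a time correlated with r between 0.853 and 0.974, and array medians ran from 65.63 to 83.33. In 6 libraries Fga, an acute-phase transcript, exceeded 1000 at a time where another library was under 200: 0.25 h replicate 2, 0.5 h replicate 3, 1 h replicate 2, 5 h replicate 2, 7 h replicate 3 and 8 h replicate 1. Without them 5 members were higher and 4 lower at 2 to 4 h, and 3 and 3 at 5 to 8 h. None of these libraries is at 0, 2 or 4 h, so no difference at 2 to 4 h changed. Only the spread shared by all times, the filter and the adjustment could move those calls. Over all tested probe sets 683 were then higher and 717 lower at 2 to 4 h, beside 492 and 457 with every library. At 5 to 8 h there were 503 and 400, beside 474 and 450. At 2 to 4 h macrophage and neutrophil markers had a summed signal of 903 to 1450 against 332 to 507 at 0 h (3 of 6 tested higher), and fibroblast and mesangial markers of 1480 to 1940 against 657 to 1190, of which Vim was called at 1.14 ± 0.214 (adjusted p = 0.000237). No marker in these lists was at 0 in every library, and the part of any of these cells in the matrix values was not tested. Between 5 to 8 h and 30 to 72 h, the comparison that holds most member calls, markers of several cell types differed too. Of 5 proximal tubule markers 1 was higher and 3 were lower, with a summed signal of 9610 to 14100 against 11300 to 14300. Thick limb and distal tubule markers were lower in 2 of 3 (1740 to 4900 against 4450 to 7080), those of smooth muscle in 2 of 2 tested (261 to 430 against 348 to 556) and those of endothelium in 2 of 4 tested (488 to 1190 against 766 to 1120). Fibroblast and mesangial markers went the other way, with 2 of 4 tested higher and 0 lower (1130 to 2460 against 935 to 1990). The part of all these cells in the calls of that comparison was not tested.

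Other settings ended many of these calls. With only the compared times in the fit, the differences from 0 h at 5 to 8 h had adjusted p-values of 0.0851 for Col4a1, 0.0623 for Lama3, 0.0603 for Col8a2, 0.095 for Itga2b and 0.138 for Itgb5. In that fit the differences between 5 to 8 h and 30 to 72 h had 0.0824 for Col4a4, 0.0613 for Col1a1, 0.066 for Col12a1, 0.0988 for the brighter Itgb1 probe set and 0.102 for Itgb4.

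Leaving out arrays named b or c removed 2 h replicate 2, 4 h replicate 3 and 12 h replicate 2. It also removed 72 h replicates 2 and 3, so replicate 1 stood alone at 72 h. The b array of the averaged 5 h library went as well. The F calls of Col4a1, Col4a4, Lamb2, Lama3, Col6a3, Col3a1 and Sparc were then lost. The differences between 5 to 8 h and 30 to 72 h became 0.401 for Lama2 and 0.3 for Lama1. The dimmer Col5a2 probe set had 0.369, Col1a1 -0.488, Col12a1 -0.382, Col9a2 -0.515 and Sparc -0.545. The dimmer and brighter Itgb1 probe sets had 0.185 and 0.193, and Itgb4 had -0.283. Against 0 h, Col8a2 differed by -0.665 at 2 to 4 h and the dimmer Itgb5 probe set by -0.417 at 5 to 8 h. None of these calls was kept, and the parts of the array letter and of the lost libraries were not tested.

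No filter, quantile normalization, array weights, robust moderation or leaving out the libraries of high Fga also ended 1 or more calls of Col1a1, Col3a1, Col4a4, the dimmer Col5a2 probe set, Col8a2 at 2 to 4 h, Col9a2, Col12a1, Itga2b, Itgb1, Itgb4, Itgb5 against 0 h, and the F tests of Lama3, Lamb2 and Sparc. The calls of Col4a1, Lamc1, Lama3, Col8a2, the brighter Col5a2 probe set and both Itgb5 probe sets between 5 to 8 h and 30 to 72 h were kept under every alternative and without each library.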

How the data were processed

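Total RNA of rat kidney was hybridised to Affymetrix arrays: 53 arrays of the main type, of which 2 of the same 5 h library were averaged to give 52 libraries, and 10 of the second type. The deposited intensities had been scaled per array by the authors to a common trimmed mean, as the values show; the software and version are not given in the sources used here. Symbols came from platform annotation updated by gene ID: 12783 main-type probe sets had 1 symbol, 312 several and 2771 none, and on the second type 7006, 308 and 1426. Members and lists were chosen with earlier results of these data known. Named were all members past the threshold, a list of common kidney matrix genes whatever their result, and listed companion genes past the threshold. Probe sets whose mean log2(intensity + constant) was under the 40th percentile were left out. The constant was the 10th percentile, 7.63 for main-type arrays and 3.56 for the others. Each time was a group in limma 3.58.1 (R 4.3.3, moderated with trend), tested on simulated data, and windows were contrasts of time means. Correlations used 100000 permutations within times for pairs of matrix genes, or over 10 libraries between array types (Python 3.11.15, NumPy 2.4.6, SciPy 1.17.1). Precision is limited by 3 or 4 arrays per time. Alternatives were another constant, no filter, quantile normalization, robust moderation, array weights, a block on sample number, the compared times alone, leaving out arrays that carry b or c in their names, each library, and, added after seeing the data, the 6 libraries of high Fga. The labels do not say that sample numbers pair libraries of different times. Their deviations correlated in some pairs and not in others. No block was used in the tests given, and a fit with a block is reported at the end.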

Additional observations from a re-analysis of the deposited data

Results flagged for a closer look

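At 0 h, 43 named probe sets were searched for a library far from the other 3 (Dixon's test at the 95% level), which chance alone flags in about 1 of 20 groups. Lamb2 stood out, with 73 in replicate 1 beside 129 to 140 in the others, and this library enters both Lamb2 calls against 0 h. The brighter Sparc probe set read 449 in replicate 3 beside 737 to 787. The brighter Itgb1 probe set read 770 in replicate 2 beside 831 to 845, a small distance in a tight group.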

How the results depend on the processing

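No result reversed. Of 36 called values of named members, 8 were kept under every alternative and 11 without each library in turn. Over 8858 recomputations of 301 named values, 297 lost a call and 67 gained one. The counts given for members moved as follows. The 9 in the F test became 23 with array weights and 2 when arrays named with b or c were left out. Over all tested probe sets the 1535 F calls became 4607 and 916 in those settings. At 2 to 4 h the 2 higher became 10 with weights and 5 without the 6 libraries of high Fga. Array-wide, the 492 higher became 1025 and 683. The 1 lower became 0 with no filter, with quantile normalization and with the b and c arrays left out. It became 6 with weights, 3 with the compared times alone and 4 without high Fga. In the same order of settings, the 457 lower array-wide became 390, 460, 282, 1378, 576 and 717. At 5 to 8 h the 2 higher became 1 with the compared times alone, and the 4 lower became 2 with no filter and 0 with the compared times alone. Array-wide, the 474 higher became 357, and the 450 lower became 396 and 276. Between 5 to 8 h and 30 to 72 h the 8 higher became 3 and the 10 lower 5 with the b and c arrays left out, and the 10 lower became 6 without high Fga. Array-wide, the 1188 higher became 629 and the 1309 lower 648, and the 1309 lower became 1232 without high Fga. On the second type at 2 h, no filter gave 2 higher and 2 lower, beside 267 and 240 array-wide. The libraries of high Fga include none at 0, 2 or 4 h. Without them the differences at 2 to 4 h therefore stayed the same, and only the shared spread, the filter and the adjustment could move calls. Leaving out the b and c arrays kept only replicate 1 at 72 h and took a library each from 2, 4 and 12 h. The part of these lost libraries in its counts was not tested. Other causes were not tested.

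Leaving out each library gave 4 (without 4 h replicate 2) to 11 in the F test, 0 (without 0 h replicate 1) to 3 higher and 0 to 1 lower at 2 to 4 h, 0 (without 0 h replicate 1) to 2 higher and 1 (without 0 h replicate 4) to 5 lower at 5 to 8 h, and 4 (without 30 h replicate 2) to 8 higher and 6 (without 7 h replicate 3 or 48 h replicate 3) to 12 lower against 30 to 72 h. On the second type it gave 0 to 1 higher and 0 to 2 lower at 2 h, and 0 higher and 0 to 1 lower at 6 h.

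Same-numbered libraries of different times deviated together with r from -0.528 to 0.489, above 0.1 in 153 of 408 pairs. The median r was 0.057, beside -0.0261 for libraries of other numbers. Of 51 libraries 34 were closest on average to their own number, a hint from the data and not from the design. With the number as a replicate block the adjusted p was 0.151 for Col8a2 at 2 to 4 h, and 0.127 for Col8a2, 0.105 for Itga2b and 0.13 for the dimmer Itgb5 probe set at 5 to 8 h, against 0 h; no other call of a named member on the main type was lost. Number 4 exists only at 0 h, so the block in effect sets 0 h replicate 4 aside. The calls lost with the block were also lost when 0 h replicate 4 alone was left out. For Col8a2 the adjusted p in limma was then 0.162 at 2 to 4 h and 0.136 at 5 to 8 h. Blocking and the loss of that library cannot be told apart here. In the fit with the block 0 members were lower at 2 to 4 h (353 array-wide). At 5 to 8 h 4 were higher and 1 lower (409 and 345 array-wide). On the second type 1 was higher and 2 lower at 2 h (211 and 243 array-wide), and 0 were lower at 6 h (33 array-wide).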
